A study of Homo sapiens with 6 samples.

Results

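The genes described here are 6 metallothioneins (MT2A, MT1E, MT1F, MT1G, MT1M and MT1X) and MTF1, the transcription factor that drives them. They were taken by gene symbol from a table of RNA-seq read counts, and all 7 of 7 were found among its 20729 genes. The libraries came from SW620, a human cell line derived from a colorectal cancer. One group of 3 libraries (siOSBPL3) was treated with siRNA against OSBPL3, which encodes a lipid-binding protein of the oxysterol-binding protein family, and the other 3 (siNC) with control siRNA. The genotype was otherwise the same by the labels, and siRNA sequences, dose and time are not given in the sources used here. The question put by the design is what changes when OSBPL3 is knocked down. Whether the 3 libraries of each group are separate cultures is not stated in the labels, so the p-values speak only of the spread among them, and that spread may be technical.

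Metallothioneins are small, cysteine-rich proteins that bind zinc, copper and cadmium through their thiol groups, buffer free zinc and scavenge oxidants. In humans most of them are encoded side by side on chromosome 16. MTF1 is a zinc-finger protein that senses free zinc. When zinc rises, it enters the nucleus and binds short metal response elements (MREs) in the promoters of metallothionein genes and of the zinc exporter gene SLC30A1. Metallothionein genes also respond to glucocorticoids and to oxidative stress. In the intestinal epithelium metallothioneins hold zinc taken up from the gut, and their loss has been reported in colorectal tumours.

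Total counts ran from 34569895 to 39701340 in the siOSBPL3 libraries and from 30040020 to 33667128 in the siNC libraries. OSBPL3 itself was at 40.2, 12.2 and 15.1 counts per 1000000 counts (CPM) in the siOSBPL3 libraries, against 179, 174 and 175 CPM in the siNC libraries. The targeted gene fell by 2.97 ± 0.48 on the log2 scale (SE, edgeR adjusted p = 0.0016), and by 3.68 without siOSBPL3 replicate 1, which kept the most OSBPL3. Differences between the groups were wide: 80.2% of the 15506 genes tested passed an adjusted p of 0.05, 40.4% higher and 39.8% lower in siOSBPL3. Markers of the epithelium were among them. CDX2, an intestinal transcription factor, averaged 63.5 CPM in siOSBPL3 and 1.15 CPM in siNC, and VIL1, the brush-border protein villin, averaged 62.5 CPM in siOSBPL3 and 482 CPM in siNC. The summed level of 13 intestinal epithelial markers was 4922 to 6057 CPM in siOSBPL3 and 7111 to 7189 CPM in siNC. KRT20 and CDX1, 2 of the 13, were near 0 in both groups. The lower epithelial sum came mostly from KRT8, KRT18 and VIL1, while of 11 such markers tested 5 rose and 3 fell. The 6 fibroblast markers in the table summed to 3.18 to 5.98 CPM in siOSBPL3 and 70.0 to 74.4 CPM in siNC, most of the siNC sum being LUM, which had no count in siOSBPL3. Leukocyte markers (5 genes) summed to 8.31 to 11.2 CPM in siOSBPL3 and 19.8 to 22.1 CPM in siNC, and endothelial markers (2 genes) to 0.219 to 0.803 CPM in siOSBPL3 and 1.39 to 2.25 CPM in siNC. The leukocyte sum was carried by CD68, with 5.87 CPM in siOSBPL3 and 19.0 CPM in siNC, whereas CD14 was at 3.06 CPM in siOSBPL3 and 0.278 CPM in siNC. Transcripts of the mitochondrial genome made up 7.80 to 7.97% of counts in siOSBPL3 and 6.43 to 6.54% in siNC. The part of these shifts in the metallothionein values was not tested. The labels give SW620 for both groups, but whether both came from the same stock of cells was not tested, and with markers this far apart a difference between stocks cannot be told apart from an effect of the siRNA in any value below. In bulk RNA a change in the number of cells of a kind cannot be told apart from a change in RNA per cell.

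All 6 metallothioneins rose in siOSBPL3, and MTF1 did not pass the test. Summed over the 6 genes, metallothionein transcripts were at 736, 589 and 698 CPM in the siOSBPL3 libraries, against 52.9, 51.4 and 52.5 CPM in the siNC libraries. The means were 674 ± 76.4 and 52.2 ± 0.776 CPM (SD, n = 3 each), a ratio of 12.9, and the lowest siOSBPL3 library lay far above the highest siNC library. Of all deposited counts, unscaled, this was 0.0685% in siOSBPL3 and 0.00515% in siNC. The count of 6 of 6 higher stands beside 40.4% of all tested genes higher. In the same way, in each of the 6 genes every siOSBPL3 library lay above every siNC library, which held for 41.5% of all tested genes. MT1F, MT1G and MT1M passed the filter on low counts only through the siOSBPL3 libraries, so their place in that count was partly set by the filter.

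**Figure D1:**
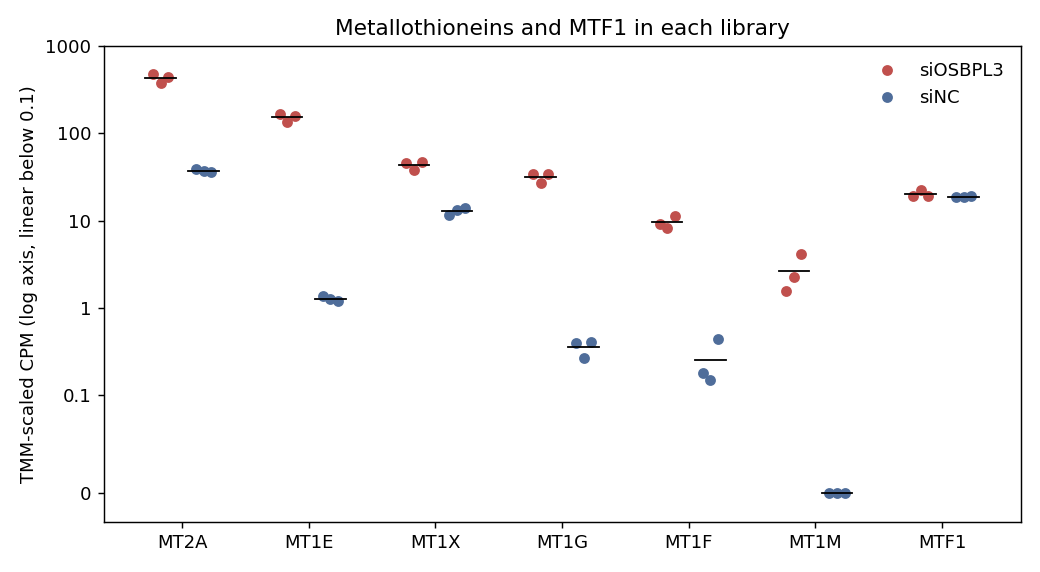
Level of each metallothionein and of MTF1 in CPM on a log axis that turns linear below 0.1, with siOSBPL3 libraries left of siNC libraries and 1 point per library; the bars mark group means, and the siNC libraries of MT1M are drawn at 0. The groups are apart for all 6 metallothioneins and overlap for MTF1, which had 18.9 to 22.4 CPM in siOSBPL3 and 18.4 to 19.3 CPM in siNC.

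MT2A encodes the metallothionein that most human cells make in the largest amount. It was at 477, 378 and 445 CPM in the siOSBPL3 libraries, against 39.3, 36.6 and 36.5 CPM in the siNC libraries. Its log2 fold change was 3.53 ± 0.11 (edgeR adjusted p = 5.6e-11), an 11.6-fold rise, and 927 tested genes had a larger one. MT2A was the most abundant of the 6 in every library of both groups. Because it carried most of the transcripts, its rise set most of the rise in the sum.

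MT1E was the member with the next highest level in siOSBPL3 and was nearly silent in siNC. It was at 167, 136 and 156 CPM in the siOSBPL3 libraries, against 1.37, 1.26 and 1.21 CPM in the siNC libraries. The difference was 6.89 ± 0.13 on the log2 scale, or 119-fold (edgeR adjusted p = 1.9e-12), and rested on 17192 counts in siOSBPL3 and 123 in siNC. MT1G, a gene often found silenced in tumours, moved in much the same way from a lower level. It was at 34.6, 27.0 and 34.2 CPM in the siOSBPL3 libraries, against 0.396, 0.271 and 0.404 CPM in the siNC libraries, a log2 fold change of 6.47 ± 0.20 (edgeR adjusted p = 6.2e-11). The siNC value of MT1G came from only 34 counts over the 3 libraries.

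MT1F and MT1M were the members with the lowest levels. MT1F was at 9.27, 8.20 and 11.2 CPM in the siOSBPL3 libraries, against 0.183, 0.151 and 0.438 CPM in the siNC libraries. It rose by 5.23 ± 0.33 on the log2 scale (edgeR adjusted p = 2.3e-08), with 24 counts in siNC, so that its fold change was the least precise of those with counts in both groups. MT1M had 56, 82 and 165 counts in the siOSBPL3 libraries and no count in any siNC library. Against the 3 counts that a count of 0 allows over the siNC group (0.0313 CPM), MT1M was at least 86.1-fold higher (edgeR adjusted p = 7.3e-06), with the bound covering counting error only.

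MT1X started in siNC below MT2A but above the other metallothioneins. It was at 46.0, 37.6 and 47.5 CPM in the siOSBPL3 libraries, against 11.6, 13.1 and 13.95 CPM in the siNC libraries. Its log2 fold change of 1.76 ± 0.12 (edgeR adjusted p = 5.0e-08), or 3.39-fold, was the smallest of the 6, and 2220 tested genes had a larger one. In siNC, then, MT2A and MT1X were the only metallothioneins of the 6 above 2 CPM, while in siOSBPL3 all 6 were above 1 CPM in every library.

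MTF1, the factor that binds metallothionein promoters, was at 19.2, 22.4 and 18.9 CPM in the siOSBPL3 libraries, against 18.4, 18.5 and 19.3 CPM in the siNC libraries. The groups overlapped, and the log2 fold change of 0.10 ± 0.11 did not pass the test (edgeR adjusted p = 0.39). Once GC content and transcript length were corrected for, it was 0.56 and passed (adjusted p = 0.00033), so the call for MTF1 depends on that choice. Its counts of 574 to 820 per library give the transcript level alone, and the activity of MTF1 protein was not measured.

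**Figure D2:**
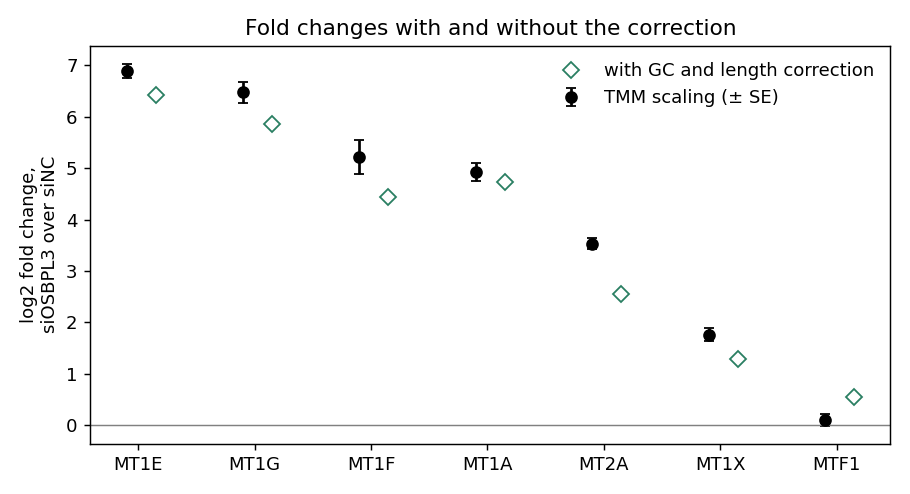
Log2 fold change, siOSBPL3 over siNC, of MTF1, MT1A and the 5 metallothionein members with counts in both groups, as fitted (filled, with SE) and after GC content and length of the transcript were corrected for (open, without SE). All metallothioneins drawn lie above 0 with either fit, MT2A at 3.53 and 2.55, and MTF1 lies at 0.10 and 0.56.

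The correction subtracts what GC content and length predict from all genes. Transcripts of the 6 metallothioneins held 53.5 to 63.0% GC and that of MTF1 46.7%, and the smooth trend fitted over 13818 tested genes gave values of 0.94 for MT2A, 0.92 for MT1M, 0.77 for MT1F and -0.49 for MTF1 on the log2 scale. The corrected log2 fold change was 2.55 for MT2A, 4.43 for MT1F and 5.85 for MT1G. For each of these the unlogged fold was lower by a factor of more than 1.5. Corrected log2 values were 6.42 for MT1E and 1.30 for MT1X. All remained past the threshold.

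The make-up of the metallothionein pool differed between the groups as well. MT1E made up 22.7, 23.1 and 22.4% of the summed counts of the 6 genes in the siOSBPL3 libraries, against 2.59, 2.46 and 2.31% in the siNC libraries. MT1X, in contrast, made up 6.26, 6.38 and 6.81% in the siOSBPL3 libraries, against 21.9, 25.5 and 26.6% in the siNC libraries. MT2A held 64.2 ± 0.559% in siOSBPL3 and 71.7 ± 2.47% in siNC (SD, n = 3 each). MT1E had thus taken the place behind MT2A that MT1X held in siNC. MT1G made up 4.73 ± 0.156% in siOSBPL3 and 0.682 ± 0.134% in siNC, MT1F 1.42 ± 0.173% in siOSBPL3 and 0.491 ± 0.299% in siNC, and MT1M 0.396 ± 0.194% in siOSBPL3 and none in siNC. For each of the 6 genes the groups did not overlap. The two-sided exact permutation test gave p = 0.1, the smallest that 3 against 3 libraries allow, and 0.1 after adjustment over the 6 genes. Shares are parts of the same sum, so a gain in one forces a fall in others, and the 6 results are not separate. MT2A and MT1X lost share although both rose in level.

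**Figure D3:**
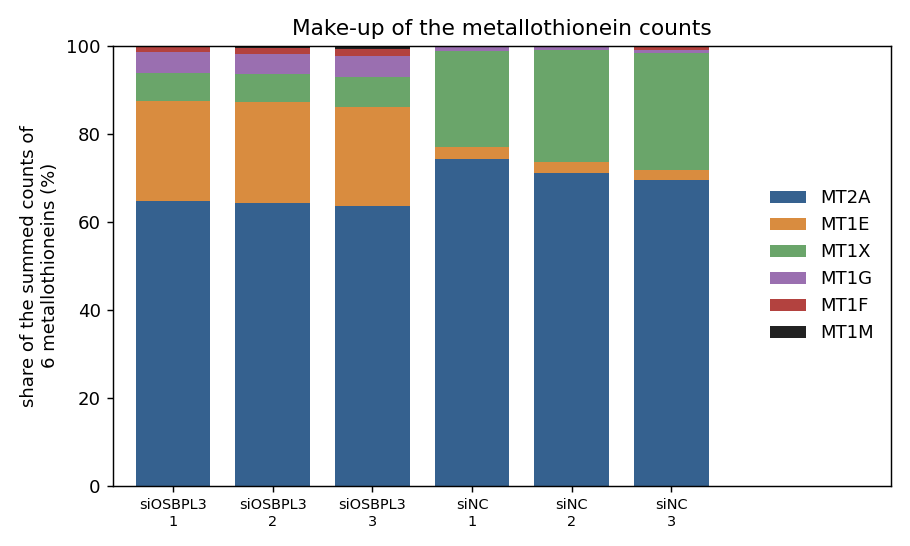
Share of each metallothionein in the summed counts of the 6 genes, in percent, stacked in 1 bar per library, with siOSBPL3 libraries to the left of siNC libraries. MT2A is the largest share in all libraries, and MT1E is at 22.4 to 23.1% in siOSBPL3 and 2.31 to 2.59% in siNC.

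Per length of exon, the order of the members can be compared within a group. The values are CPM per kilobase of the annotated exons of each gene. In siOSBPL3, MT2A stood at 437 ± 51.0, MT1E at 146 ± 15.2, MT1X at 53.1 ± 6.54, MT1G at 42.6 ± 5.69, MT1F at 13.0 ± 2.07 and MT1M at 3.20 ± 1.64 CPM per kilobase (SD, n = 3). MT1X and MT1G were neighbours whose libraries overlapped, with 45.6 to 57.8 for MT1X and 36.0 to 46.1 for MT1G, and the other neighbours did not overlap. In siNC, MT2A stood at 37.8 ± 1.62, MT1X at 15.7 ± 1.45, MT1E at 1.22 ± 0.076, MT1G at 0.476 ± 0.099 and MT1F at 0.350 ± 0.215 CPM per kilobase, where MT1G and MT1F overlapped. MTF1 was at 2.53 ± 0.244 in siOSBPL3 and 2.35 ± 0.064 in siNC. On this scale 13818 tested genes with an annotated length were ranked. MT2A was above 99.2% of these genes in siOSBPL3 and above 89.0% in siNC. MT1E was above 97.3% of them in siOSBPL3 and above 22.8% in siNC.

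Within the siOSBPL3 group 5 of the 6 metallothioneins shared their lowest library. How often each library was the lowest over all tested genes was not counted. Replicate 2 was the lowest library for MT2A, at 87.2% of the group mean, and also for MT1E (88.7%), MT1X (85.9%), MT1F (85.8%) and MT1G (84.6%). MT1M departed from this, with 58.4, 84.5 and 157% of its group mean in replicates 1, 2 and 3, and MTF1 was highest in replicate 2, at 111%. OSBPL3 was at 179, 54.2 and 67.3% of its group mean in the same libraries. The library with the most OSBPL3 left was therefore not the lowest in MT2A, MT1E, MT1X, MT1F or MT1G, and with 3 libraries no relation was tested.

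The 6 genes lie together in the metallothionein cluster on the long arm of chromosome 16 (RefSeq, GRCh38.p14), where 16 annotated metallothionein genes and pseudogenes span 119.1 kb. From the side of the centromere they run as MT2A (chr16:56608584-56609497), MT1E (chr16:56625781-56627112), MT1M (chr16:56632659-56633981), MT1F (chr16:56657959-56659303), MT1G (chr16:56666730-56668065) and MT1X (chr16:56682470-56684196). MT1G is on the minus strand and the others are on the plus strand. Together the 6 span 75.6 kb, with MT2A at one end and MT1X, the gene with the smallest fold change, at the other. MTF1 is on the minus strand of chromosome 1 (chr1:37809574-37859592).

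The genes are close copies, so reads could be shared between them. Their coding sequences were 88.7 to 93.7% identical over 15 pairs. Of all windows of 50 bases in a transcript, 4.89% in MT2A, 5.34% in MT1E, 3.59% in MT1F, 7.05% in MT1M, 15.96% in MT1X and 20.2% in MT1G also occurred in another metallothionein transcript, and of windows of 100 bases none did. MT1X further shares exon sequence with an overlapping transcript on the same strand, AC026461.1. How the authors' counting treated reads with several matches is not given in the sources used here, so values of MT1G and MT1X are the least certain in this respect.

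Of the other metallothioneins, MT1A, MT1H and MT3 were in the table. MT1A was at 49.9, 35.5 and 48.6 CPM in the siOSBPL3 libraries, against 1.52, 1.42 and 1.45 CPM in the siNC libraries, and rose by 4.93 ± 0.17 on the log2 scale (edgeR adjusted p = 1.5e-10). It followed the members, with replicate 2 again the lowest siOSBPL3 library. MT1H, which lies between MT1G and MT1X, had 1 count in all siOSBPL3 libraries and 2 in all siNC libraries. MT3, the metallothionein known from brain, had 12 counts in siOSBPL3 and 3 in siNC, a ratio of 3.41 with an exact 95% counting interval from 0.920 to 18.8. No change of MT1H or MT3 was detectable at this depth.

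Promoter sequence was at hand from RefSeq for MT2A and MT1X among the metallothioneins with high counts, for the barely detected MT1H, and for MTF1, so that 3 of the 7 genes had an entry (MT1E, MT1F, MT1G and MT1M did not). The 250 bases before the start of MT2A (chr16:56608334-56608583), MT1X (chr16:56682220-56682469) and MT1H (chr16:56669564-56669813) are shown, all on the plus strand of GRCh38.p14, because they set 2 genes that rose beside a neighbour that was barely detected. Capitals mark matches to the MRE core, searched as TGCACNC and TGCGCNC on both strands.
MT2A: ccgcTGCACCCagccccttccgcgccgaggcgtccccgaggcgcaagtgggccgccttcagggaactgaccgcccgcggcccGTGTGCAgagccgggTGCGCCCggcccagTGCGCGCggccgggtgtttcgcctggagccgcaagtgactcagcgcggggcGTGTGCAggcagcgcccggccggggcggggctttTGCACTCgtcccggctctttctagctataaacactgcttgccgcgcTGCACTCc
MT1X: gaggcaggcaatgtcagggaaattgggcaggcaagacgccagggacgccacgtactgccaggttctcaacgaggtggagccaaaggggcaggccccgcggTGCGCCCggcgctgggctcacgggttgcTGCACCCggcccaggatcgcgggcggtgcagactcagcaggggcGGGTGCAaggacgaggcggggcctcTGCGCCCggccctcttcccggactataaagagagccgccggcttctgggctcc
MT1H: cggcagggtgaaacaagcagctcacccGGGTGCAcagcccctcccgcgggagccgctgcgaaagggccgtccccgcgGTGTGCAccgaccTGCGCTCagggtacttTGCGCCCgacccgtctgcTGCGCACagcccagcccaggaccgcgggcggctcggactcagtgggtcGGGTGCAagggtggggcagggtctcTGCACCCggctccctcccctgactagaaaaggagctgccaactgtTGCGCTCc

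MT2A held 7 matches (5 of TGCACNC and 2 of TGCGCNC), MT1X held 4 (2 of each) and MT1H held 8 (4 of each). Over 35116 promoters of the same length, 24.8% held at least 1 match, 0.37% at least 4, 0.0313% at least 7 and 0.0171% at least 8. Of these 4 promoters, the one with the most matches belonged to MT1H, with 3 counts in all 6 libraries. MTF1 held none in its own promoter. The antioxidant response element, searched as TGACNNNGC on both strands, had 1 match each in MT2A and MT1X and none in MT1H or MTF1, against 10.9% of promoters with at least 1. A match is a description of the letters and not a site of binding.

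**Figure D4:**
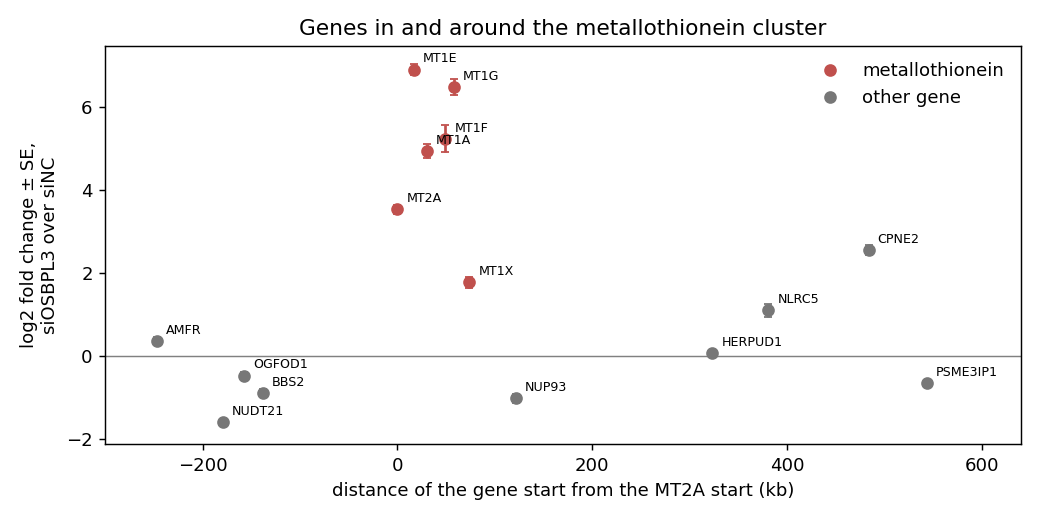
Log2 fold change, siOSBPL3 over siNC, of tested genes by distance in kilobases from the start of MT2A, metallothioneins and other genes in different colours, with bars of SE; MT1M, with no siNC count, is not drawn. The metallothioneins lie between 1.76 and 6.89 and the other genes nearby between -1.61 and 2.55.

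Of 9 tested genes that start within 500 kb of the cluster, 3 rose and 5 fell, while 1 missed the threshold, beside 40.4% higher and 39.8% lower among all tested genes. Their median log2 fold change was -0.48, and that of all tested genes -0.00089. CPNE2, which encodes a calcium-dependent membrane-binding protein, rose by 2.55 ± 0.11, and NLRC5, a regulator of MHC class I genes, by 1.09 ± 0.15. NUDT21, a subunit of the cleavage factor that chooses polyadenylation sites, fell by 1.61 ± 0.09 on the log2 scale and the nuclear pore gene NUP93 by 1.02 ± 0.10 (edgeR, each adjusted p at or under 2.6e-05). With the correction for GC content and length NUDT21 was at -0.89, and 3 rather than 5 of these genes were lower. Around MTF1, 7 of 14 tested genes rose, 3 fell and 4 missed the threshold (median 0.31), against the same background of 40.4% higher and 39.8% lower. MANEAL, a close neighbour of MTF1, rose by 4.65 ± 0.21. C1orf122, whose start lay nearest the lower coordinate of MTF1, rose by 2.63 ± 0.12. YRDC, which starts between C1orf122 and MANEAL, was at 0.28 ± 0.14 (edgeR adjusted p = 0.085). INPP5B, the first listed gene past the other end of MTF1, was at -0.04 ± 0.10 (edgeR adjusted p = 0.74). Neither YRDC nor INPP5B passed the test, and the libraries overlapped for both, as they did for MTF1 itself. ZC3H12A, an RNase that limits inflammatory transcripts, rose by 2.05 ± 0.09 and the receptor gene EPHA10 by 1.43 ± 0.21; corrected values were 3.94 for MANEAL, 1.73 for C1orf122, 1.34 for ZC3H12A and 0.83 for EPHA10.

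Other genes reported as targets of MTF1 did not move in a single direction. Of 8 tested, 5 rose, 2 fell and 1 missed the threshold (median 0.52), beside 40.4% higher and 39.8% lower among all tested genes. SLC30A1, the zinc exporter of the plasma membrane and the best known of these targets, was at 36.8, 38.8 and 52.3 CPM in the siOSBPL3 libraries, against 36.2, 35.4 and 35.6 CPM in the siNC libraries. Its log2 fold change of 0.25 ± 0.12 did not pass the test (edgeR adjusted p = 0.078), although every siOSBPL3 library was above every siNC library. It passed at 0.36 without siOSBPL3 replicate 1 (adjusted p = 0.0083), at 0.29 with scaling by library totals (adjusted p = 0.037) and at 1.01 with the correction for GC content and length (adjusted p = 3.7e-06). It did not pass under the other 12 alternatives, and was at 0.087 (adjusted p = 0.33) without siOSBPL3 replicate 3, the library at 52.3 CPM. SLC39A10, a zinc importer that zinc represses through MTF1 in mouse cells, was at 19.9, 21.2 and 22.3 CPM in the siOSBPL3 libraries, against 108, 109 and 109 CPM in the siNC libraries. It fell by 2.36 ± 0.08 on the log2 scale, and by 1.58 with the correction. SLC40A1, the iron exporter ferroportin, fell by 3.39 ± 0.15, and CSRP1, a LIM-domain protein of the actin cytoskeleton, rose by 2.98 ± 0.09. NDRG1, a stress-response gene, rose by 0.84 ± 0.11, and GCLC, the catalytic subunit of the enzyme that limits glutathione synthesis, by 0.56 ± 0.08. HAMP, the iron hormone hepcidin, had no count in any library.

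The zinc importers of the SLC39 family bring zinc into the cytosol. Of 12 tested, 7 rose, 3 fell and 2 missed the threshold (median 0.82), against a background of 40.4% higher and 39.8% lower over all tested genes. SLC39A5, an importer of the basolateral membrane of enterocytes, was at 0.083, 0.027 and 0.101 CPM in the siOSBPL3 libraries, against 7.76, 9.58 and 8.53 CPM in the siNC libraries, and fell by 6.85 ± 0.34 on the log2 scale (edgeR adjusted p = 3.1e-09), and was at -7.66 with the correction for GC content and length. SLC39A4, the apical importer that takes up dietary zinc, rose by 1.49 ± 0.11, but by 0.46 with that correction. SLC39A6, another plasma-membrane importer, rose by 1.45 ± 0.11.

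The zinc exporters of the SLC30 family move zinc out of the cytosol. Of 7 tested, 1 rose, 4 fell and 2 missed the threshold (median -0.51), where 40.4% of all tested genes rose and 39.8% fell. SLC30A3, which loads synaptic vesicles, fell by 2.85 ± 0.34 (edgeR adjusted p = 8.0e-06), at 0.868 CPM in siOSBPL3 and 6.24 CPM in siNC, and was at -3.76 with the correction. SLC30A9 and SLC30A7, which serve mitochondria and the Golgi, fell by 0.58 ± 0.09 and 0.55 ± 0.09, but were at 0.18 and 0.46, above 0, with the correction for GC content and length. SLC30A4 rose by 0.56 ± 0.20 (edgeR adjusted p = 0.019), which was lost without siNC replicate 1 (adjusted p = 0.089) or without siOSBPL3 replicate 3 (adjusted p = 0.054). With the correction 5 exporters were higher and 1 lower, so no direction for the family held over both fits.

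Among genes that handle copper, the other physiological metal of metallothioneins, 8 of 15 tested rose, 6 fell and 1 missed the threshold (median 0.46), shares near the 40.4% higher and 39.8% lower of all tested genes. ATP7A, a copper-exporting ATPase, was at 6.76 CPM in siOSBPL3 and 53.0 CPM in siNC and fell by 2.97 ± 0.11 on the log2 scale. SCO2, which delivers copper to cytochrome oxidase, was at 21.5 CPM in siOSBPL3 and 4.14 CPM in siNC and rose by 2.37 ± 0.14. COMMD1, a regulator of copper ATPase traffic, rose by 1.51 ± 0.14, and the metalloreductase gene STEAP2 fell by 1.60 ± 0.13 on the log2 scale (edgeR, each adjusted p at or under 6.9e-07). Corrected values for SCO2, STEAP2 and ATP7A were 1.29, -0.67 and -2.06.

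Of 10 factors other than MTF1 that act on metallothionein promoters or steer such factors, 5 rose, 4 fell and 1 missed the threshold (median 0.36), near the 40.4% higher and 39.8% lower of all tested genes. KEAP1, which holds the antioxidant factor NFE2L2 in check, averaged 143 CPM in siOSBPL3 and 22.5 CPM in siNC and rose by 2.67 ± 0.09. NFE2L2 itself was at 132, 125 and 150 CPM in the siOSBPL3 libraries, against 127, 127 and 124 CPM in the siNC libraries, and did not pass the test (edgeR adjusted p = 0.27). HIF1A, the hypoxia factor, fell by 1.61 ± 0.11 and SP1, which binds GC boxes, by 1.60 ± 0.08, while USF2, which binds E-boxes, rose by 1.36 ± 0.09. With the correction KEAP1 was at 2.03, HIF1A at -0.88 and USF2 at 0.48.

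Thiol redox genes, whose products share the chemistry of metallothionein cysteines, included 19 that were tested. Of these 14 rose, 3 fell and 2 missed the threshold (median 0.84), beside 40.4% higher and 39.8% lower among all tested genes, and whether the list differs from other genes was not tested. With the correction for GC content and length, 10 rose and 4 fell. GCLM, the modifier subunit of glutathione synthesis, rose by 1.79 ± 0.08, TXNRD1, thioredoxin reductase, by 1.73 ± 0.07, GSR, glutathione reductase, by 1.21 ± 0.10 and PRDX2, a peroxiredoxin, by 1.17 ± 0.08. The corrected value was 2.55 for GCLM and 0.42 for PRDX2.

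Heat shock genes are induced, as metallothioneins are, by cadmium and other thiol-reactive agents. Of 11 tested, 7 rose, 2 fell and 2 missed the threshold (median 0.98; all tested genes, 40.4% higher and 39.8% lower). HSPB1, a small heat shock protein, averaged 400 CPM in siOSBPL3 and 58.9 CPM in siNC and rose by 2.76 ± 0.10. BAG3, a co-chaperone, rose by 2.11 ± 0.12, and the factor gene HSF2 fell by 1.74 ± 0.12 on the log2 scale. HSPA1B rose by 3.22 ± 0.21, but HSPA1A, its near-identical copy, was at 5.80 CPM in siOSBPL3 and 9.01 CPM in siNC, so the split of reads between them is uncertain. In 10 of the 11 genes, HSF1 being the exception, siOSBPL3 replicate 1 was the lowest of its group. Replicate 2 was the lowest for 5 of the 6 metallothioneins. Replicate 1 was the lowest for 12 of 19 thiol redox genes and 8 of 12 zinc importers, but 1 of 8 glucocorticoid-induced genes. Its share over all tested genes was not counted. Corrected values for HSPA1B and HSPB1 were 2.62 and 1.71.

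Glucocorticoids also induce MT2A. Of 8 glucocorticoid-induced genes tested, 4 rose, 2 fell and 2 missed the threshold (median 0.38), near the 40.4% higher among all tested genes, with 39.8% lower. SGK1, a kinase of ion transport, was at 31.4, 27.6 and 29.8 CPM in the siOSBPL3 libraries, against 0.943, 1.02 and 0.472 CPM in the siNC libraries, a rise of 5.16 ± 0.20 (edgeR adjusted p = 4.0e-10). CRISPLD2 rose by 1.44 ± 0.19 and the phosphatase gene DUSP1 by 1.02 ± 0.22, while the clock gene PER1 fell by 1.17 ± 0.19 on the log2 scale and was at -1.79 with the correction. The transcript of the glucocorticoid receptor itself, NR3C1, averaged 0.259 CPM in siOSBPL3 and 3.74 CPM in siNC and fell by 3.84 ± 0.42.

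**Figure D5:**
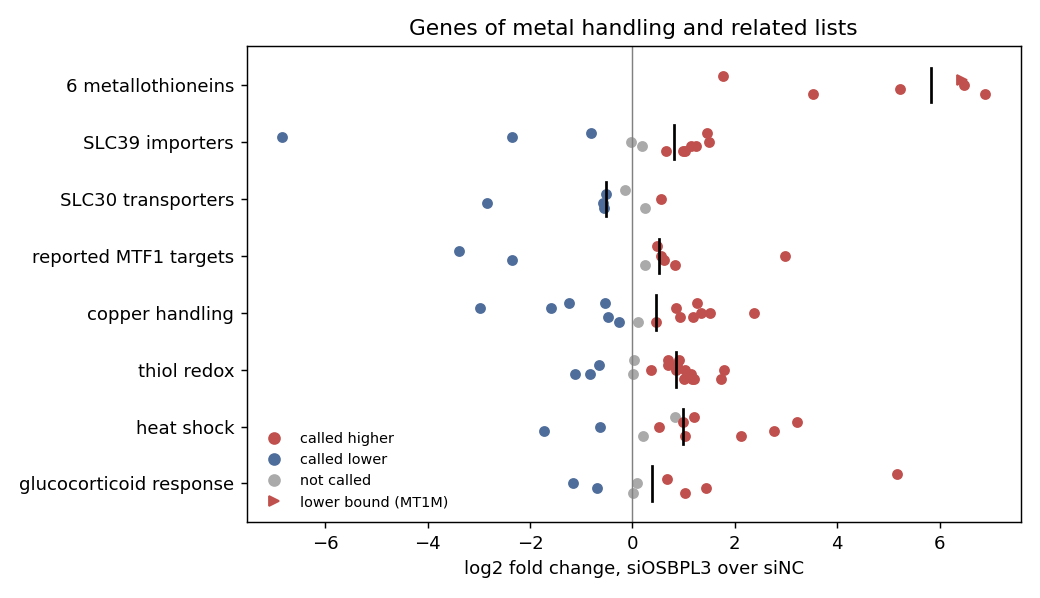
Log2 fold change, siOSBPL3 over siNC, of every tested gene in each list, with 1 point per gene and a bar at the list's median; MT1M is drawn at its lower bound. The 6 metallothioneins all lie above 1.7, while the zinc importers run from -6.85 to 1.49 and the zinc exporters from -2.85 to 0.56.

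The genes whose profile over the 6 libraries was most like that of a member were found by the root mean square difference of log2 values, each profile centred on its own siNC mean, among the 11205 genes that averaged 5 CPM or more. For MT2A they were ACSL5, which activates fatty acids, at a difference of 0.107, IGFBP6, which binds insulin-like growth factors, at 0.119 and PSMB9, an immunoproteasome subunit, at 0.119. For MT1X they were MARCHF9 at 0.0891, ACYP2 at 0.0912 and HDDC3 at 0.0937, and for MTF1 they were GPS1 at 0.0261, BCS1L at 0.0390 and FOSL2 at 0.0393. All of these share the 6 libraries and the same 2 groups with the member they resemble, so the likeness describes the size of the difference more than any variation within a group.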

How the data were processed

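The authors deposited whole-number read counts per gene symbol, not normalized, for 6 libraries. Per the labels' protocols, total RNA was sequenced in pairs on an Illumina instrument. Per the submitters' processing notes, the build was GRCh38 (hg38) and the tools HISAT2 2.2.1 and HTSeq 0.13.5; annotation, strand setting and counting options are not given in the sources used here. With the strand setting unknown, a gene and its antisense partner cannot be told apart.

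Tests were run in edgeR 4.0.16 (R 4.3.3). Genes were filtered by filterByExpr (minimum count 10, total 15) and scaled by TMM, and group was the only term of a two-sided robust quasi-likelihood fit. P-values were adjusted by Benjamini-Hochberg over the 15506 genes that passed the filter, with 0.05 as threshold. Fold changes are given as log2 of siOSBPL3 over siNC with their SE, and CPM values use TMM-scaled totals. In a group, 3 counts amount to 0.0267 CPM in siOSBPL3 and 0.0313 CPM in siNC; such floors cover counting error only. Shares of the metallothionein sum were compared with exact permutation tests. Exon lengths and transcript GC content came from GENCODE 29, with values for 13818 tested genes (89.1%), and the correction used a smooth trend (mgcv 1.9.3). Positions and promoters came from RefSeq. Scripts were tested on simulated data.

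Replicates of a group differed by more than sampling noise (chi-square over its degrees of freedom 18.7 to 50.2 in siOSBPL3 and 2.91 to 3.49 in siNC), so all were counted separately. The genes, lists and tests were chosen with earlier results of these data known. Named genes were all members, SLC30A1, SLC39A10 and OSBPL3. Of each list, up to 4 were named, with the largest change past the threshold and 5 CPM or more on average in a group. NR3C1, NFE2L2, GCLC, HSPA1A, HSF1, KRT8, KRT18, CD14, HAMP, KRT20, CDX1, MT1H, MT3, YRDC and INPP5B were added after their values were seen. Alternatives were DESeq2 1.42.0, limma 3.58.1, other scalings, filters and thresholds, a replicate block, GC and length correction, and each library left out.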

Additional observations from a re-analysis of the deposited data

How the results depend on the processing

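All 6 metallothioneins stayed higher and past the threshold under every alternative that tested them, beside 40.4% of tested genes higher in the main fit. MT1E, MT1G, MT1X and MT2A had 15 alternatives each. MT1F and MT1M had 14 each, since a filter at a mean of 5 CPM removed them. MT1F, MT1G and MT1M passed the main filter only through the siOSBPL3 libraries. Log2 fold changes ranged from 6.42 to 6.98 for MT1E, 4.43 to 5.81 for MT1F, 5.85 to 6.59 for MT1G, 1.30 to 1.87 for MT1X and 2.55 to 3.63 for MT2A. MTF1 ranged from 0.03 to 0.56 and passed only with GC and length correction (0.56). That correction also turned SLC30A9 (0.18) and SLC30A7 (0.46) upward; it removes any change tied to GC content or length, and the cause was not tested. Shares computed per exon length differed, siOSBPL3 minus siNC, by 18.8 points for MT1E, 1.25 for MT1F, 5.26 for MT1G, -20.6 for MT1X and -5.19 for MT2A; per transcript length by 20.7 for MT1E, 4.81 for MT1G, -23.3 for MT1X and -3.62 for MT2A. Counts of zinc exporters higher ran from 0 to 5. Same-numbered libraries did not deviate together (r of -0.020, -0.0042 and -0.019). Whether the shared numbers mark paired cultures or batches cannot be decided from this. With a replicate block MT2A was at 3.53 and MTF1 at 0.10 (edgeR adjusted p = 0.50). In the main fit the 6 metallothioneins were called, beside 80.2% of all tested genes. The number of members called was not the same under every alternative. MTF1 was called as well with GC and length correction, and MT1F and MT1M were not tested with the filter at a mean of 5 CPM. Depth limits MT1M, MT1F and MT1G in siNC, with 0, 24 and 34 counts.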

Other observations

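Tested genes were also grouped by MRE core matches in their promoters, a grouping chosen after the values were seen. Of 59 genes with at least 4 matches, MT2A and MT1X among them, 31 rose and 16 fell, and the median was 0.41 on the log2 scale. Of 275 genes with at least 3, 45.8% rose and 33.8% fell, and of 8092 with none, 40.5% rose and 40.1% fell. These are descriptions without a test, and the part of GC content in them was not tested.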
